A study of Mus musculus with 29 samples.

Results

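Insulin receptor signalling and the amino acid and energy sensors around the kinase mTOR were described through 10 genes, chosen by name and found by symbol in the deposited table of 24770 genes: Insr, Irs1, Irs2, Pik3r1, Akt2, Tbc1d4, Sesn1, Sesn3, Deptor and Eif4ebp1. All 10 passed the filter on low counts in every comparison. Expression was measured by RNA-seq in brown adipose tissue (BAT) and gastrocnemius muscle (SkM) of male wild-type C57BL/6J mice, 1 library per mouse and tissue. The interventions began at 8 weeks of age and lasted 8 weeks. Control mice ate ad libitum and stayed sedentary, CR mice were calorie restricted to 70% of ad libitum intake, EX mice ran on a treadmill, and CREX mice received both interventions. Tissue was taken 24 h after the last run and after a 6 h fast in all groups. BAT came from 3 control, 4 CR, 4 EX and 4 CREX mice, and SkM from 4 control, 3 CR, 4 EX and 3 CREX mice. Only males of 1 strain and 1 time point were studied, so the values describe mRNA at that point and not phosphorylation or protein.

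Insulin binding to its receptor (encoded by Insr) leads to phosphorylation of the adaptor proteins IRS1 and IRS2, which recruit PI3-kinase through its regulatory subunit p85α, the main product of Pik3r1. The lipid made by PI3-kinase activates AKT2, and AKT2 phosphorylates TBC1D4 (also called AS160), which releases the glucose transporter GLUT4 to the cell surface in muscle and fat. AKT also relieves inhibition of mTORC1, the growth-promoting kinase complex that phosphorylates 4E-BP1 (Eif4ebp1), a repressor of cap-dependent translation. The sestrins (Sesn1, Sesn3) restrain mTORC1 when amino acids are scarce, DEPTOR binds and inhibits mTOR itself, and several of these genes are known targets of FOXO transcription factors, which AKT keeps out of the nucleus.

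Libraries held 21047242 to 24919377 counts in BAT and 23050918 to 23425284 in SkM. Brown adipocyte markers summed to 10863 to 16627 CPM (a count relative to its whole library) in BAT against 396 to 872 in SkM, so each tissue carried its defining markers. Some libraries stood apart. Fast muscle markers ranged from 2.88 to 5716 CPM in BAT, at most 5.33% of their mean in control SkM, and were highest in CREX replicates 3 and 4 and EX replicates 2 and 3. Slow fibre markers in SkM summed to 118 and 59.7 CPM in CREX replicates 2 and 3 and to 386 in EX replicate 1, against 711 to 2495 in the other libraries. Hepatocyte markers summed to 33.5 to 211 CPM in the SkM CR libraries and 43.7 in CREX replicate 1, against at most 4.93 in control SkM. In BAT they summed to 59.9 CPM in CR replicate 3, 53.5 in EX replicate 2 and 37.7 in CREX replicate 4. The other BAT libraries held at most 4.57 CPM. No fit in BAT was adjusted for hepatocyte markers. The 4 BAT libraries highest in fast muscle markers are called muscle-rich. The 3 SkM libraries lowest in slow fibre markers are called slow-poor. Results that change without these muscle-rich or slow-poor libraries are given both ways. In whole tissue, fewer cells of a type and less RNA per cell cannot be told apart.

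The comparisons asked how far each intervention moved the 10 genes on its own and on top of the other. A gene was taken to have risen or fallen when it passed edgeR's quasi-likelihood test at a Benjamini-Hochberg adjusted p under 0.05 over all genes, and log2 fold changes (log2FC) are given with their standard error (SE). Under CR, averaged over sedentary and trained mice, 3 of the 10 genes rose in BAT (Sesn1, Pik3r1, Insr) and 1 fell (Akt2), where 15.9% of all 13922 genes tested rose and 17.5% fell. In SkM 5 rose (Pik3r1, Sesn1, Eif4ebp1, Deptor, Tbc1d4) and 1 fell (Insr), where 16.5% of 13610 genes rose and 17.0% fell. With the study's minimum of a 1.5-fold change added, 1 gene was left in BAT (Sesn1; 11.8% of all genes met both thresholds in either direction) and 5 in SkM (the 5 that rose; 14.1% of all genes). The median log2FC of the 10 genes was 0.07 in BAT and 0.68 in SkM, against -0.00047 and 0.0042 over all genes. The 99 other pathway genes tested had medians of -0.02 and 0.02. The 10 genes were chosen with earlier results of these data known, so these shares and medians are descriptions only.

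**Figure D1:**
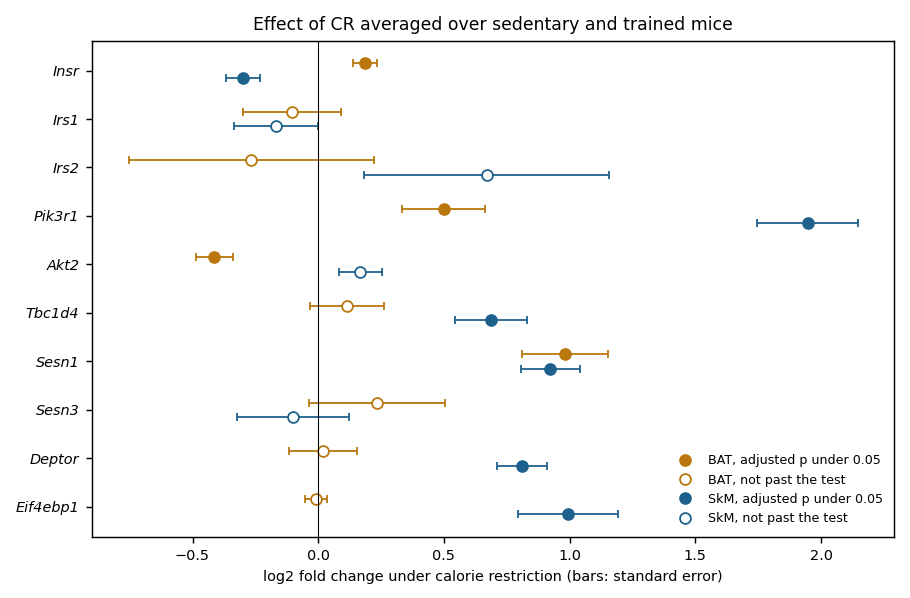
Log2 fold change of the 10 genes under calorie restriction, averaged over sedentary and trained mice, in BAT and SkM, with bars of 1 standard error and filled points for an adjusted p under 0.05. Sesn1 lies at 0.98 in BAT and 0.92 in SkM, while Pik3r1 reaches 1.95 in SkM and 0.50 in BAT. Insr has effects of opposite sign in the tissues, both past the test. Akt2 also differs in sign, but its SkM effect (0.17) was not past the test.

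In the separate comparisons, CR against control changed 4 of the 10 genes in BAT, with Pik3r1, Sesn1 and Deptor higher and Akt2 lower, where 9.99% of 13323 genes rose and 10.9% fell. CREX against EX changed 2 in BAT, Insr and Sesn1, both higher, where 3.71% of 13251 genes rose and 4.30% fell. In SkM, CR against control raised Pik3r1, Sesn1 and Deptor and lowered Irs1, where 6.29% of 13173 genes rose and 7.67% fell. CREX against EX raised 5 in SkM, namely Pik3r1, Sesn1, Deptor, Tbc1d4 and Eif4ebp1, where 6.62% of 13112 genes rose and 6.96% fell. Without the slow-poor libraries Pik3r1, Sesn1 and Deptor were called in CREX against EX and Tbc1d4 and Eif4ebp1 were not, with 3.83% of 13647 genes called in either direction. With the slow muscle score as a covariate, Sesn1 was called among the 10 in that comparison, and 0.435% of all genes. The averaged SkM fit without the slow-poor libraries called the same 3 genes and 15.7% of 14286 genes, and the tissue difference without them and the muscle-rich libraries called 8.08% of 15518 genes. With the slow muscle score as a covariate, the averaged SkM fit called all 6 genes of the full fit, and 3227 of 13610 genes. Sesn1 was the gene among the 10 that passed the test in CR against control and in CREX against EX in both tissues. The pairs of comparisons in a tissue use different mice, so no library is shared between CR against control and CREX against EX.

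Values per library are given in replicate order as TMM-normalized CPM. Insr, the receptor gene on chromosome 8 (3122061 to 3279617, minus strand, GRCm38), was measured in BAT at 63.6, 68.6 and 64.2 CPM in the control, 70.5, 64.2, 79.0 and 70.003 in the CR, 59.4, 61.9, 54.5 and 60.0 in the EX and 73.4, 75.0, 66.2 and 68.7 in the CREX libraries. Every CREX library exceeded every EX library, while CR and control overlapped. In SkM the values were 48.8, 51.2, 52.4 and 57.1 CPM in control, 40.1, 42.5 and 44.3 in CR, 46.2, 51.3, 44.2 and 46.4 in EX and 42.9, 38.8 and 33.5 in CREX. Here both restricted groups lay wholly below their unrestricted partners. Averaged over both settings, Insr rose 1.14-fold in BAT (log2FC 0.19, SE 0.049, adjusted p = 0.00878) and fell to 0.812 of its level in SkM (log2FC -0.30, SE 0.067, adjusted p = 0.00357). The difference between the tissues itself passed the test (log2FC -0.49 in SkM relative to BAT, SE 0.083, adjusted p = 0.000159), in a fit where 10.4% of 14865 genes responded more positively in SkM and 10.1% more negatively. Without the 3 slow-poor libraries the SkM value was -0.24 and no longer passed (adjusted p = 0.070), whereas the tissue difference without them and the 4 muscle-rich BAT libraries remained past the test at -0.47 (adjusted p = 0.0078). With the slow muscle score as a covariate the averaged SkM value was -0.25 and passed (adjusted p = 0.0241). In the main fits no single SkM contrast called Insr (adjusted p = 0.0643 for CR and 0.0941 for CREX), and the call for CREX against EX in BAT (log2FC 0.26, SE 0.066, adjusted p = 0.0421) held in 1 of 8 fits that left out 1 mouse.

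Irs1 and Irs2 encode the adaptors between the receptor and PI3-kinase. Irs1 lies on chromosome 1 (82233101 to 82291416, minus strand) and Irs2 on chromosome 8 (10984681 to 11008458, minus strand). The window from 250 bases before to 50 after their RefSeq start sites (GRCm38.p6) held the E-box CACGTG in both genes, a motif present in 7.15% of 32851 mouse promoters searched the same way. It stands 115 bases before the start of Irs1 and 44 before that of Irs2, and is shown in capitals because the adaptors share it, read 5′ to 3′ on the gene strand.
Irs1 (chr1:82291539-82291564): gaggctccgtCACGTGttttgctcct
Irs2 (chr8:11008958-11008983): aacgcagagtCACGTGttgttttgct
No binding was measured here, so the motif is a description of the letters only.

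Irs1 in SkM was measured at 23.1, 35.5, 33.2 and 30.1 CPM in the control, 24.3, 17.0 and 18.1 in the CR, 27.7, 23.2, 30.1 and 41.8 in the EX and 29.4, 31.3 and 51.2 in the CREX libraries. The CR values were the lowest group, although CR replicate 1 stood above control replicate 1. Irs1 fell under CR against control (log2FC -0.62, SE 0.17, adjusted p = 0.0381) but was not called in CREX against EX (log2FC 0.28, SE 0.25, adjusted p = 0.462). Both contrasts were set against each other in the interaction of CR and EX, where Irs1 gave a log2FC of 0.92 (SE 0.33, edgeR adjusted p = 0.941), so a difference between sedentary and trained mice was not established. The CR call held in 2 of 7 fits that left out 1 mouse, and was lost without control replicate 2, 3 or 4 or CR replicate 2 or 3. Without the slow-poor libraries the CREX against EX value of Irs1 was -0.11 (SE 0.34, adjusted p = 0.922). In BAT the CR, EX and CREX libraries ranged from 18.6 to 31.9 CPM, within the control range of 14.8 to 46.3.

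Irs2 varied more between mice of a group than between groups. The BAT control libraries held 7.56, 77.5 and 20.2 CPM, and the other BAT libraries lay between 4.02 and 23.96. In SkM 12 of the 14 libraries lay between 5.83 and 12.9 CPM, with control replicate 4 at 21.8 and CREX replicate 3 at 66.5. Control replicate 2 in BAT, with the highest Irs2, also had the highest Irs1 of that tissue, and CREX replicate 3 was highest for both adaptors in SkM. No comparison called Irs2, and the SE of its averaged CR effect, 0.49 in both tissues, was the largest among the 10 genes.

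**Figure D2:**
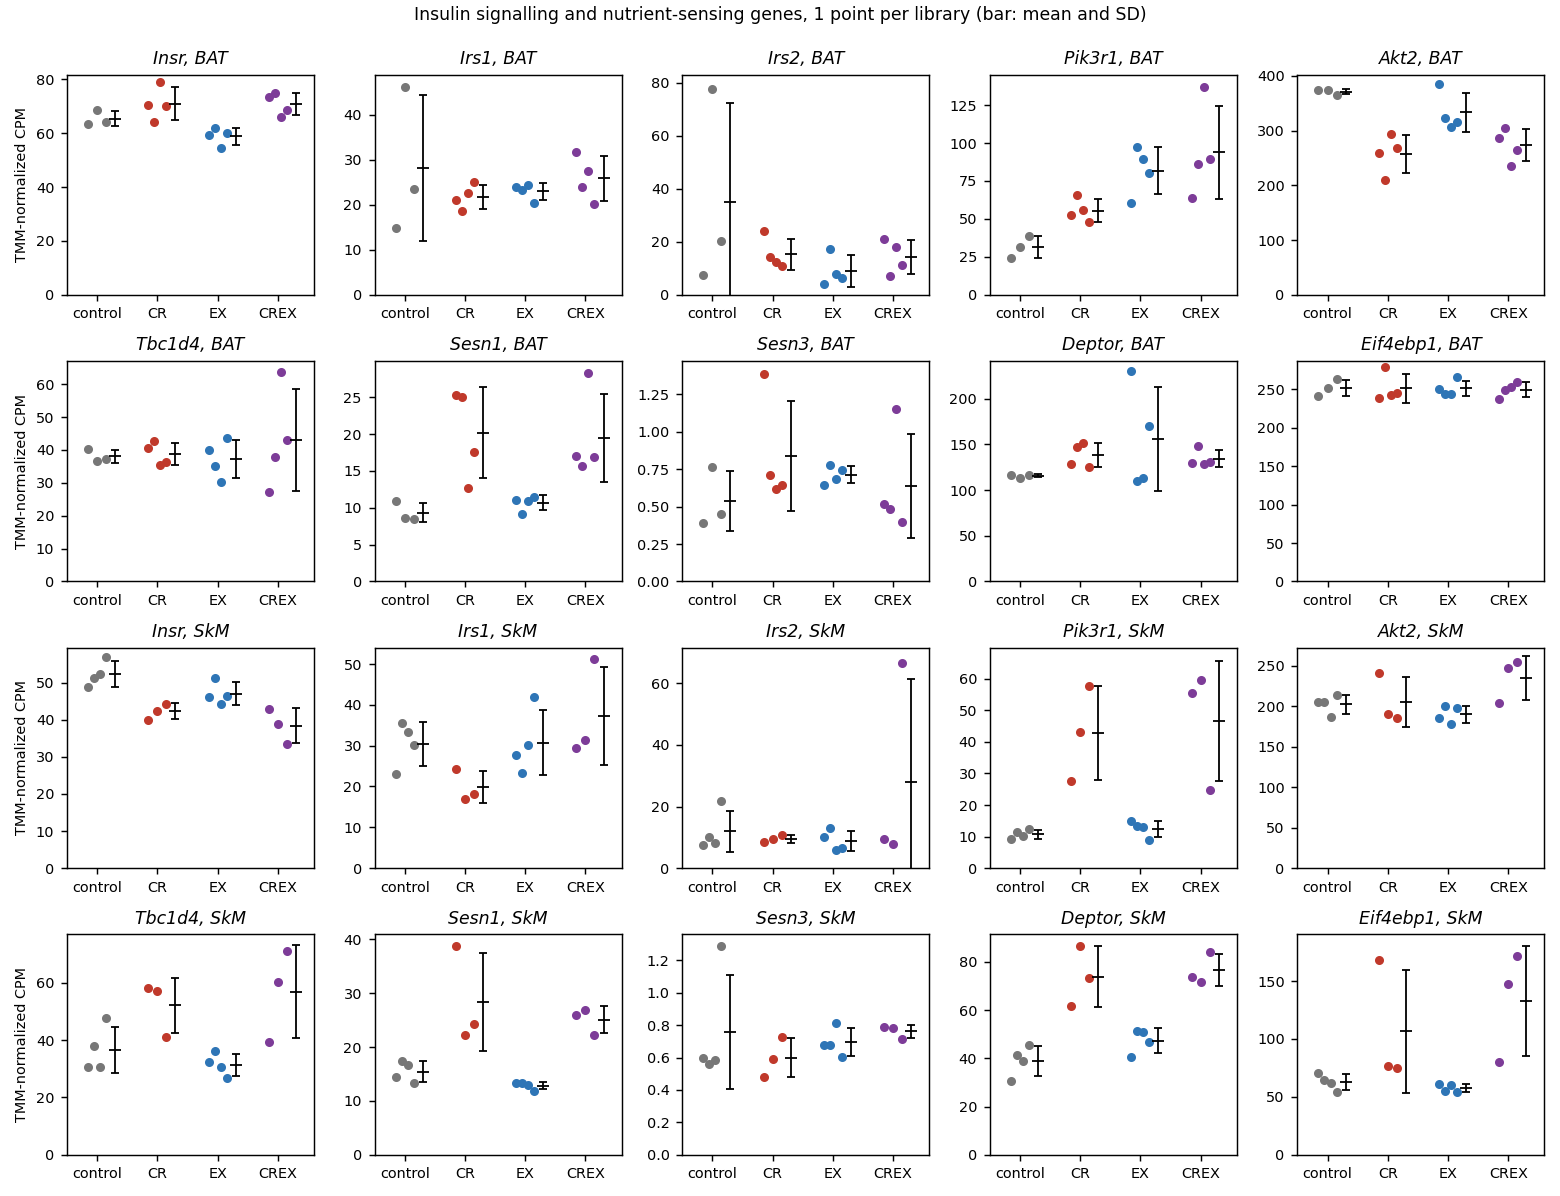
TMM-normalized CPM of each of the 10 genes in every library, by group, with BAT in the upper and SkM in the lower panels, and the mean and SD of each group beside the points. Pik3r1, Sesn1 and Deptor in SkM show the CR and CREX libraries above every control and EX library, whereas Irs2 spreads from 7.56 to 77.5 CPM within the BAT control group alone.

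Pik3r1, encoding the p85α, p55α and p50α regulatory subunits of PI3-kinase (chromosome 13, 101680563 to 101768217, minus strand), had the largest change among the 10 genes. In SkM it was measured at 9.15, 11.4, 10.04 and 12.4 CPM in control and 14.8, 13.3, 12.9 and 8.99 in EX, against 27.6, 43.2 and 57.6 in CR and 55.5, 59.6 and 24.9 in CREX. The lowest restricted library thus stood above the highest unrestricted one. Pik3r1 rose 3.99-fold under CR (log2FC 1.995, SE 0.21, adjusted p = 0.000419) and 3.72-fold in CREX against EX (log2FC 1.90, SE 0.31, adjusted p = 0.0123). The averaged effect of 1.95 (SE 0.20, adjusted p = 2.19e-05) was called in all 14 fits that left out 1 mouse and in all 9 other settings.

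In BAT the Pik3r1 values were 24.4, 31.7 and 38.9 CPM in control, 52.3, 65.4, 55.8 and 47.8 in CR, 60.7, 97.2, 89.4 and 80.0 in EX and 63.8, 86.4, 137 and 89.1 in CREX. All 3 intervention groups lay above control without overlap, and the trained groups were the highest. CR raised it in sedentary mice (log2FC 0.80, SE 0.17, adjusted p = 0.0149), but between the trained groups it was not called (log2FC 0.19, SE 0.24, adjusted p = 0.673). The interaction was not called (log2FC -0.61, SE 0.33, adjusted p = 0.88). The averaged CR effect of 0.50 (SE 0.17, adjusted p = 0.0345) did not pass without the 4 muscle-rich BAT libraries (0.45, adjusted p = 0.0641). With the fast muscle score as a covariate it was 0.49 (adjusted p = 0.0541). The call was also lost with no filter on low counts. In fits that left out 1 mouse it was lost without control replicate 1 or 2, CR replicate 2 or 3, or EX replicate 1 or 4. Pik3r1 responded more strongly in SkM than in BAT (difference 1.45, SE 0.27, adjusted p = 0.000637). Without the muscle-rich BAT and slow-poor SkM libraries the difference was 1.63 (adjusted p = 0.000684).

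Akt2, the AKT isoform tied to insulin-stimulated glucose uptake (chromosome 7, 27591552 to 27640826, plus strand), fell in BAT. The libraries held 374, 374 and 365 CPM in control, 259, 209, 293 and 267 in CR, 386, 324, 307 and 316 in EX and 287, 304, 236 and 265 in CREX. No restricted library reached the lowest unrestricted one of the tissue. CR lowered it against control (log2FC -0.53, SE 0.097, adjusted p = 0.00433), and averaged over both settings it fell to 0.751 of its level (log2FC -0.41, SE 0.072, adjusted p = 0.000586), a call kept in all 15 fits that left out 1 mouse. Between CREX and EX alone the log2FC of -0.29 missed the threshold (SE 0.097, adjusted p = 0.0926).

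In SkM Akt2 was at 206, 205, 186 and 214 CPM in control, 241, 191 and 185 in CR, 185, 200, 178 and 198 in EX and 204, 247 and 255 in CREX. The CREX libraries lay above the EX libraries and the CR libraries overlapped control, with an averaged log2FC of 0.17 (SE 0.087, adjusted p = 0.147). The effect differed between the tissues (0.58, SE 0.12, adjusted p = 0.000854). Leaving out the muscle-rich BAT and slow-poor SkM libraries reduced this difference to 0.41, past the threshold no longer (adjusted p = 0.0939).

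Tbc1d4, the AKT substrate that holds back GLUT4 vesicles (chromosome 14, 101442360 to 101609191, minus strand), rose in SkM and was not called in BAT. SkM libraries held 30.6, 37.8, 30.8 and 47.6 CPM in control, 58.1, 57.1 and 41.2 in CR, 32.4, 36.1, 30.6 and 26.9 in EX and 39.4, 60.2 and 71.2 in CREX. CREX lay above EX without overlap, and CR overlapped control through control replicate 4. The averaged effect was 1.61-fold (log2FC 0.69, SE 0.14, adjusted p = 0.00233), with 0.85 in CREX against EX (SE 0.19, adjusted p = 0.0227) and 0.51 in CR against control (SE 0.18, adjusted p = 0.0824). Tbc1d4 was highest in the 2 CREX libraries that were poorest in slow fibre markers. Without these and EX replicate 1 the averaged value was 0.40 (adjusted p = 0.0941), and that of CREX against EX was 0.33 (SE 0.17, adjusted p = 0.336). With the slow muscle score as a covariate the averaged value was 0.54 (adjusted p = 0.0272) and that of CREX against EX 0.48 (adjusted p = 0.319). In BAT the libraries ranged from 27.1 to 63.8 CPM, both extremes in CREX, and the averaged log2FC was 0.11 (SE 0.15, adjusted p = 0.585).

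Sesn1 encodes sestrin 1, which acts on the GATOR complexes to restrain mTORC1 (chromosome 10, 41809935 to 41908424, plus strand). A copy of the FOXO core motif (GTAAACA, or TGTTTAC on the other strand) was found around the upstream of its 2 RefSeq starts, 22 bases after it, and 3.65% of all promoters searched held one. It is shown because Sesn1 rose in every comparison of restricted with unrestricted mice. No binding was measured, so the motif is a description of the letters only, and its part in that rise was not tested.
Sesn1 (chr10:41810586-41810612): aaccttctacTGTTTACcagccttttg
The capitals mark the motif. No promoter sequence was available for Insr, Deptor and Eif4ebp1. None of the other promoters available (Irs1, Irs2, Pik3r1, Akt2, Tbc1d4 and Sesn3) held this core, which says only that these letters were not in those windows. Those windows also held no glucocorticoid response element (AGAACA and TGTTCT spaced by 3 bases, searched on both strands, 0.00913% of all promoters), and the C/EBP-ATF composite TGATGNAA (3.97%) was found at 1 of the 4 Akt2 starts.

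Sesn1 values in BAT were 10.9, 8.61 and 8.54 CPM in control and 11.04, 9.19, 10.97 and 11.5 in EX, against 25.3, 25.1, 12.7 and 17.5 in CR and 17.0, 15.7, 28.3 and 16.8 in CREX. In SkM they were 14.5, 17.5, 16.6 and 13.3 in control and 13.4, 13.2, 12.9 and 11.9 in EX, against 38.8, 22.2 and 24.2 in CR and 26.0, 27.0 and 22.2 in CREX. Restricted and unrestricted libraries did not overlap in either tissue, with or without training. The averaged rise was 1.98-fold in BAT (log2FC 0.98, SE 0.17, adjusted p = 0.000849) and 1.90-fold in SkM (log2FC 0.92, SE 0.12, adjusted p = 5.0e-05). The difference between the tissues was -0.06 with an SE of 0.21 (adjusted p = 0.879). Both averaged calls held in every fit that left out 1 mouse. They also held without the muscle-rich libraries in BAT and without the slow-poor libraries in SkM. In the single comparisons of BAT the calls were less stable, holding in 3 of 7 fits for CR (log2FC 1.11, SE 0.26, adjusted p = 0.026) and 5 of 8 for CREX (log2FC 0.86, SE 0.19, adjusted p = 0.0281). The SkM call for CR was lost with the replicate number as a block (log2FC 0.77, adjusted p = 0.066).

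Sesn3, another sestrin gene (chromosome 9, 14275067 to 14333101, plus strand), was close to the detection limit, between 0.393 and 1.39 CPM in BAT and 0.483 and 1.29 in SkM. The groups overlapped in all CR comparisons, and the averaged log2FC was 0.23 in BAT (SE 0.27, adjusted p = 0.537) and -0.10 in SkM (SE 0.22, adjusted p = 0.757).

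Deptor, the mTOR inhibitor gene (chromosome 15, 55112317 to 55259271, plus strand), rose in SkM. It was measured at 30.5, 41.2, 39.0 and 45.4 CPM in control, 61.5, 86.8 and 73.4 in CR, 40.4, 51.3, 50.9 and 46.8 in EX and 73.9, 71.8 and 84.0 in CREX. All 6 restricted libraries lay above all 8 unrestricted ones. The rise was 0.92 under CR (SE 0.15, adjusted p = 0.00345), 0.69 in CREX against EX (SE 0.11, adjusted p = 0.00888) and 0.81 averaged (SE 0.099, adjusted p = 3.85e-05), or 1.75-fold. The averaged call held in all 14 fits with 1 mouse left out, and at 0.73 (adjusted p = 0.00162) without the slow-poor libraries.

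In BAT Deptor was at 116, 114 and 117 CPM in control, 129, 147, 152 and 125 in CR, 230, 110, 114 and 170 in EX and 129, 148, 128 and 131 in CREX. The spread in EX came from replicates 1 and 4. CR raised it against control by 0.26 (SE 0.083, adjusted p = 0.0471), a call that held in 1 of 7 fits with 1 mouse left out, and the averaged effect was 0.02 (SE 0.13, adjusted p = 0.932). The tissue difference was 0.79 (SE 0.17, adjusted p = 0.00193).

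Eif4ebp1, encoding the translation repressor 4E-BP1 (chromosome 8, 27260329 to 27276674, plus strand), was nearly constant in BAT. The 15 libraries ranged from 237 to 279 CPM, with group means of 252 ± 10.9 in control (SD, n = 3), 251 ± 18.4 in CR, 251 ± 10.2 in EX and 249.6 ± 9.65 in CREX (SD, n = 4 each), and the averaged log2FC was -0.01 (SE 0.045). In SkM the libraries held 70.4, 64.2, 62.3 and 54.4 CPM in control, 168, 76.5 and 75.0 in CR, 60.9, 55.1, 60.5 and 53.9 in EX and 80.1, 147 and 171 in CREX. Restricted libraries lay above unrestricted ones, but 3 of them (CR replicate 1 and CREX replicates 2 and 3) stood at 147 to 171 CPM, against 75.0 to 80.1 in the other restricted mice. The averaged rise was 1.99-fold (log2FC 0.99, SE 0.20, adjusted p = 0.00211), and the tissue difference was 0.99 (SE 0.20, adjusted p = 0.00106). Without the 3 slow-poor libraries, which include both high CREX libraries, the averaged value was 0.62 (adjusted p = 0.0744) and the tissue difference, leaving out the muscle-rich BAT libraries too, 0.65 (adjusted p = 0.103). CREX against EX gave 1.21 with all libraries (SE 0.22, adjusted p = 0.0138) and 0.50 without the slow-poor ones (SE 0.15, adjusted p = 0.0615). With the slow muscle score as a covariate the averaged value was 0.71 (adjusted p = 0.0247) and that of CREX against EX 0.70 (adjusted p = 0.206).

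Several markers of other cell types moved with CR beside these genes. In SkM all 5 endothelial and 2 of 4 fibroblast markers fell in the averaged fit (endothelial sum 129 to 193 CPM in CR against 199 to 265 in control), all 4 hepatocyte markers rose, and 4 of 10 fast muscle markers rose (summed 143741 to 171324 CPM in CR against 104165 to 111295 in control). Hepatocyte markers were near 0 in CREX replicates 2 and 3 (summed 0.258 and 0.344 CPM). In both, Pik3r1, Akt2, Tbc1d4, Sesn1, Deptor and Eif4ebp1 were above every EX library and Insr was below. The share of all genes that separated these libraries from EX was not counted, so this is a description only. Without the 4 hepatocyte-rich SkM libraries, which leaves CREX replicates 2 and 3 (both slow-poor) against EX, 7 of the 10 genes passed the test, the 6 of the full fit and Akt2 (log2FC 0.40, SE 0.096, adjusted p = 0.00633), where 32.0% of 13570 genes were called. With the hepatocyte score as a covariate, 7 of the 10 and 33.8% of 13610 genes were called. In BAT all 4 macrophage and all 4 fibroblast markers fell (10.9 to 18.1 against 19.9 to 23.1 CPM and 111 to 145 against 168 to 188 CPM in CR against control), and 5 of 10 brown adipocyte markers fell while 1 rose. Of the endothelial markers 2 of 5 fell in BAT. The 1 of 4 lymphocyte markers tested there also fell (log2FC -3.46), with sums of 0.0945 to 0.297 CPM in CR against 1.01 to 1.55 in control. Beyond the fits given, the part of all these cell types in the results for the 10 genes was not tested.

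Training changed none of the 10 genes by edgeR's test. In BAT, EX against control called 0% of 13407 genes and CREX against CR 0.00763% of 13112. In SkM the shares were 0.0930% of 12907 for EX against control and 0% of 13068 for CREX against CR. The interaction of CR and EX called 0% of all genes in BAT and 0% in SkM. At an unadjusted p under 0.05 the 10 genes numbered 1 (EX against control) and 1 (CREX against CR) in BAT and 2 and 1 in SkM, with 0 in the BAT and 1 in the SkM interaction. Over all genes the shares at that threshold were 7.25% and 7.63% in BAT, 6.85% and 3.65% in SkM, and 5.75% and 4.92% in the interactions. DESeq2 called 1, 1, 0 and 0 in those 4 comparisons and 0 in either interaction, against 0.324%, 0.304%, 0.471% and 0.171% of all genes it fitted, and 0.0172% and 0.00441% in the interactions. Pik3r1 in BAT was the gene behind both DESeq2 calls. Its edgeR log2FC was 1.38 for EX against control (SE 0.21, unadjusted p = 0.000342, adjusted p = 0.252), a value larger than that of CR, and 0.77 for CREX against CR (SE 0.22, unadjusted p = 0.00978, adjusted p = 0.518). In SkM the genes with an unadjusted p under 0.05 were Sesn1 (-0.27, adjusted p = 0.574) and Deptor (0.27, adjusted p = 0.697) for EX against control, and Irs1 (0.91, adjusted p = 0.999) for CREX against CR. EX against control shares its control libraries with CR against control, and these values are set side by side only.

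Between the tissues of control mice, 4 of the 10 genes were lower in SkM and 1 higher, where 37.2% of 13797 genes were lower and 37.7% higher. Lower in SkM were Eif4ebp1 (log2 difference -1.73, SE 0.10, adjusted p = 1.9e-08), Deptor (-1.29, SE 0.12, adjusted p = 8.73e-07), Pik3r1 (-1.28, SE 0.15, adjusted p = 1.47e-05) and Akt2 (-0.60, SE 0.093, adjusted p = 0.000102). Sesn1 was higher (1.001, SE 0.13, adjusted p = 2.13e-05). Insr, Irs1, Irs2, Tbc1d4 and Sesn3 did not pass. The CPM per gene were scaled within each tissue, so levels are compared between the tissues by the fit above only.

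Levels within gene families were compared per kb of exon, in CPM per kb of the control groups. Akt2 stood above Akt1, at 76.9 in BAT and 42.0 in SkM against 26.8 and 16.0. Among sestrins, Sesn2 (3.78) exceeded Sesn1 (2.36) in BAT, whereas in SkM Sesn1 (3.90) was far above Sesn2 (0.44), and Sesn3 was lowest in both (0.057 and 0.080). Under CR the averaged log2FC of Sesn2 was -0.84 in BAT (SE 0.37, adjusted p = 0.10) and 0.30 in SkM (SE 0.14, adjusted p = 0.105). Irs3, an adaptor lost in human, had the highest level of the Irs genes in BAT (12.1, against 5.55 for Irs2, or 2.19 without control replicate 2, and 3.08 for Irs1) and fell there under CR (log2FC -0.39, SE 0.11, adjusted p = 0.0114), but was low in SkM (0.25). Pik3r1 in control SkM (1.42) lay below Pik3r2 (4.86), and in CR SkM its mean was 5.66 against 5.41 for Pik3r2. Eif4ebp1 (126) was above Eif4ebp2 (30.7) in BAT but similar to it in SkM (31.5 and 32.8), and Eif4ebp2 rose under CR in SkM as well (log2FC 0.36, SE 0.10, adjusted p = 0.0121).

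**Figure D3:**
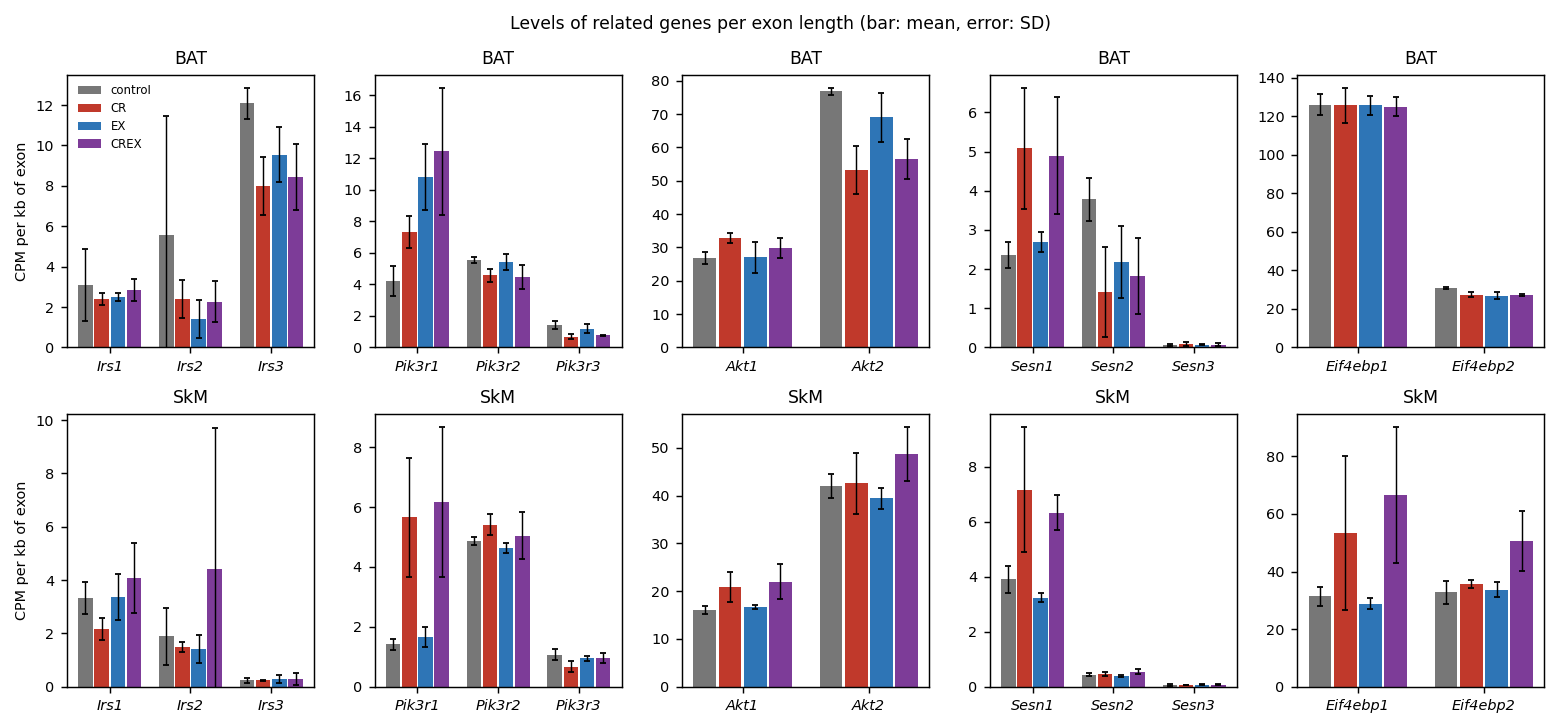
Mean CPM per kb of exon of genes from 5 families in the 4 groups of BAT (upper) and SkM (lower), with SD as error bars, whose lower ends are clipped at 0 where the SD exceeds the mean. Pik3r1 in SkM goes from 1.42 in control to 5.66 in CR, while Pik3r2 is at 4.86 and 5.41.

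The other genes of the pathway were taken from role lists of 102 genes, 99 of which were tested in each tissue. Under CR, averaged, 25 rose and 18 fell in BAT and 19 rose and 15 fell in SkM, with median log2FCs of -0.02 and 0.02. Over all genes the shares were 15.9% up and 17.5% down in BAT and 16.5% up and 17.0% down in SkM, and they are the background of the counts by role. By role, with the 10 genes included, PI3-kinase subunits and phosphatases had 3 of 9 up and 4 down in BAT and 2 up and 3 down in SkM. AKT and its substrates had 4 of 14 up and 3 down in BAT and 5 of 15 up and 1 down in SkM, and mTOR complex genes had 3 of 15 up and 1 down in BAT and 6 of 14 up and 1 down in SkM. Amino acid sensing genes had 9 of 28 up and 3 down in BAT and 3 up and 4 down in SkM. Inhibitors of insulin signalling had 0 of 11 up and 3 down in BAT and 2 up and 1 down in SkM. Receptor and adaptor genes had 3 of 10 up and 2 down in BAT and 1 up and 1 down in SkM, mTORC1 outputs 3 of 12 up and 1 down in BAT and 3 up and 3 down in SkM, and AMPK subunits and regulators 3 of 10 up and 2 down in BAT and 2 up and 2 down in SkM. Known ATF4 target genes had 2 of 14 up and 2 down in BAT and 5 of 15 up and 4 down in SkM. Known FOXO target genes had 6 of 16 up and 0 down in BAT and 5 up and 2 down in SkM.

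**Figure D4:**
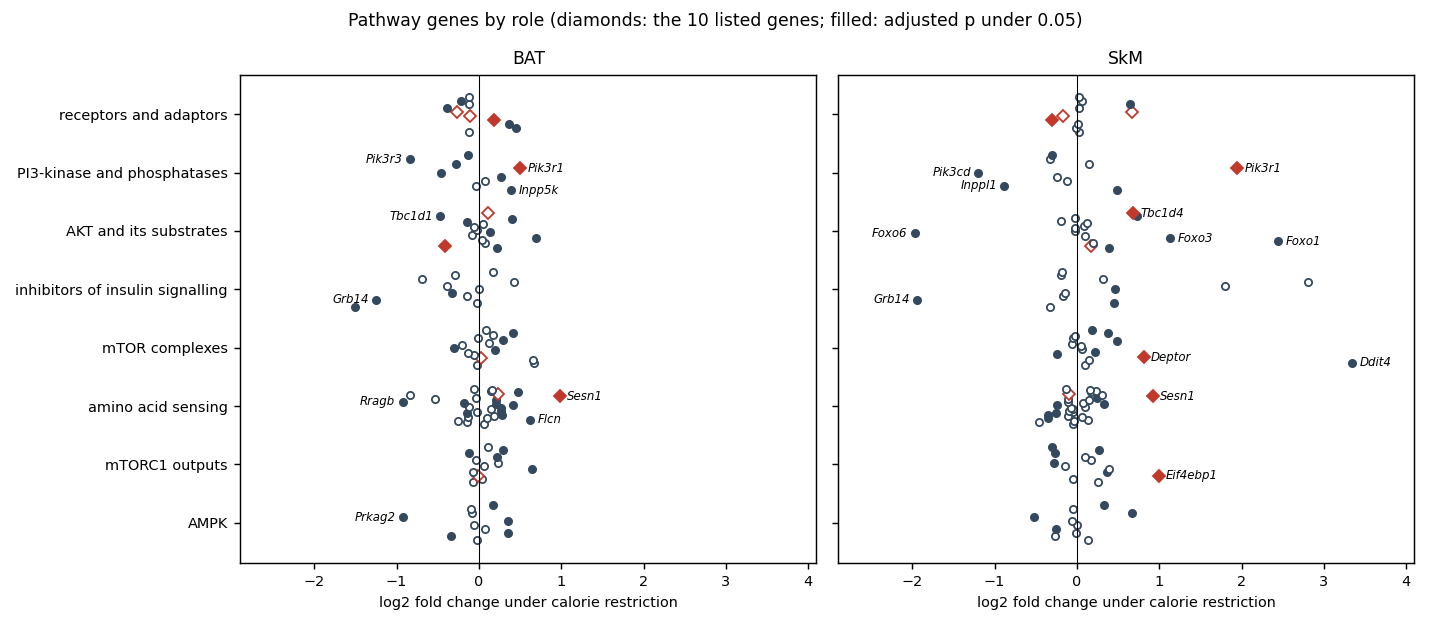
Log2 fold change under calorie restriction, averaged over sedentary and trained mice, of pathway genes grouped by role in BAT and SkM (diamonds for the 10 genes, circles for other genes, filled for an adjusted p under 0.05). SkM shows the wider spread, from Foxo6 at -1.97 to Ddit4 at 3.34, and Grb14 lies at -1.25 in BAT and -1.94 in SkM.

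The genes with the smallest p in each direction were as follows. In SkM Foxo1, the FOXO factor of fasting and atrophy programmes, averaged 14.4 ± 1.48 CPM in control (SD, n = 4) and 74.4 ± 8.07 in CR (SD, n = 3), and its averaged log2FC was 2.45 (SE 0.16, adjusted p = 2.44e-07). Foxo3 rose as well (1.13, SE 0.086, adjusted p = 5.32e-07), whereas Foxo6 fell (-1.97, SE 0.24, adjusted p = 6.03e-05). The inositol phosphatase gene Inpp5k (0.49), the insulin receptor phosphatase gene Ptpn1 (0.46) and the receptor-binding inhibitor gene Grb10 (0.45) also rose in SkM. The PI3-kinase catalytic subunit gene Pik3cd fell (-1.20, SE 0.070, adjusted p = 7.03e-08), as did the SHIP2 phosphatase gene Inppl1 (-0.88), the receptor-binding inhibitor gene Grb14 (-1.94) and the AMPK γ subunit gene Prkag2 (-0.53). Ddit4, whose product REDD1 inhibits mTORC1, was chosen after its values were seen. It had the largest rise in the lists (3.34, SE 0.54, adjusted p = 0.00097), from 2.44 to 17.3 CPM in control to 36.9 to 150.04 CPM in CR.

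In BAT the genes that rose were Inpp5k (0.39, SE 0.045, adjusted p = 1.94e-05), Flcn, encoding the folliculin of the lysosomal amino acid response (0.63), the AMPK γ subunit gene Prkag1 (0.35), the GATOR1 subunit gene Nprl2 (0.42) and the lysosomal amino acid sensor gene Slc38a9 (0.48). Those that fell were Grb14 (-1.25, SE 0.12, adjusted p = 6.23e-06), the Rag GTPase gene Rragb (-0.93), the PI3-kinase subunit gene Pik3r3 (-0.84), the TBC1D4 paralog Tbc1d1 (-0.47) and Prkag2 (-0.92). Inpp5k rose and Grb14 and Prkag2 fell in both tissues. The tissue difference passed the test for Foxo1 (2.41, SE 0.24, adjusted p = 4.1e-07), which did not change in BAT by the test (0.03, adjusted p = 0.895), for Tbc1d1 (1.20, SE 0.20, adjusted p = 0.000119), and for Nprl2 (-0.66, SE 0.10, adjusted p = 6.05e-05).

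Correlations of log2 CPM over the libraries of a tissue describe how the 10 genes varied together, and since all libraries of a tissue share the CR contrast they are not evidence of a common control. Over the 15 BAT libraries the strongest pair was Akt2 and Sesn1 (r = -0.89). Over the 14 SkM libraries Pik3r1 and Deptor reached r = 0.86, Insr and Eif4ebp1 r = -0.84, and Akt2 and Eif4ebp1 r = 0.83. Insr followed the mean log2 level of the slow fibre markers in SkM (r = 0.66, and 0.59 after removing group means), and Eif4ebp1 ran against it (r = -0.57 both before and after). Akt2 (-0.59, and -0.46 within groups), Irs1 (-0.55 and -0.29), Irs2 (-0.50 and -0.43) and Tbc1d4 (-0.40 and -0.40) also ran against it. Sesn3 gave -0.08 and 0.26. For Pik3r1, Sesn1 and Deptor the values were -0.25, -0.16 and -0.30, or 0.38, 0.05 and 0.33 within groups. Among all tested genes, those most like Akt2 in BAT were Hmgcs1 (r = 0.95), Zswim5 (r = 0.94) and Tspan18 (r = 0.94), and those most like Pik3r1 in SkM were Hip1 (r = 0.95), Pnpla3 (r = 0.95) and Nfx1 (r = 0.94).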

How the data were processed

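According to the methods of the study, the authors trimmed reads with trim-galore, aligned them to mm10 with STAR and estimated gene abundance with RSEM. The deposited table holds its expected counts per symbol without normalization. The counting annotation is not given in the sources used here. Expected counts were rounded. RSEM shares reads among similar genes, so paralog values depend on its model. edgeR 4.0.16 (R 4.3.3) was run with TMM factors, filterByExpr and robust quasi-likelihood tests, pairwise on the groups compared, over the 4 groups of a tissue for the averaged CR effect and the interaction, and over all 29 libraries for the tissue difference. The SE is the size of the log2FC divided by the square root of F. CPM of single genes carry TMM factors computed within a tissue, while marker sums and scores use CPM without them. Depths limit counting error only. Replicates within a tissue are separate mice, 1 library each. Gene positions and exon lengths come from GENCODE M21 (GRCm38) and promoters from RefSeq. The rule names all 10 genes, up to 5 other pathway genes per direction and tissue by smallest p, and the 3 genes most like 1 gene per tissue. The genes and lists were chosen with earlier results of these data known. The script was tested on simulated data. Alternatives were DESeq2 1.42.0, RLE, no filter, 1 fit over a tissue, the fold minimum, muscle scores as covariates, a replicate block, and each mouse left out. Leaving out libraries by marker level, and the hepatocyte score, were chosen after seeing the data.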

Additional observations from a re-analysis of the deposited data

Results flagged for a closer look

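In 50 groups of 4 libraries (10 genes in 5 groups), 6 held a library far from the other 3 by Dixon's criterion, which chance flags in about 1 of 20 groups. They were Sesn1 in BAT CREX replicate 3 (28.3 CPM), Sesn3 in BAT CR replicate 1 (1.39 CPM), BAT CREX replicate 3 (1.16 CPM) and SkM control replicate 4 (1.29 CPM), Deptor in BAT CREX replicate 2 (148 CPM) and Eif4ebp1 in BAT CR replicate 2 (279 CPM). BAT CREX replicate 3 also held the most fast muscle marker RNA of that tissue (5716 CPM), and the part of this in its values was not tested.

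The CR effect differed between SkM and BAT by the test of the difference for 5 genes: Pik3r1 (1.45 on the log2 scale), Eif4ebp1 (0.99), Deptor (0.79), Akt2 (0.58) and Insr (-0.49, with a fall in SkM and a rise in BAT).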

How the results depend on the processing

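No called result changed sign under any setting tried. Without the muscle-rich libraries, 3 uncalled values did in the averaged BAT fit, Tbc1d4 (-0.17), Deptor (-0.13) and Irs2 (0.12). Requiring a 1.5-fold change left 1 of the 10 genes in the averaged BAT fit (main 4), 2 for BAT CR against control (main 4) and 1 for BAT CREX against EX (main 2), where no filter on low counts also gave 1. DESeq2 called 1 gene for BAT EX against control and 1 for BAT CREX against CR (main 0). Without the slow-poor libraries 3 genes were called in the averaged SkM fit (main 6; Pik3r1, Sesn1 and Deptor) and 3 in SkM CREX against EX (main 5), where calls over all genes went from 4556 of 13610 to 2236 of 14286 and from 1781 of 13112 to 523 of 13647, and without those and the muscle-rich BAT libraries 3 in the tissue difference (main 5; Insr, Pik3r1 and Deptor), with 1254 of 15518 genes (3048 of 14865 before). With the slow muscle score as a covariate, 1 gene (Sesn1) was called in SkM CREX against EX, where calls over all genes went from 1781 to 57 of 13112 (0.435%). The log2FCs of the genes no longer called were 2.10 for Pik3r1 (1.90 before), 0.76 for Deptor (0.69), 0.48 for Tbc1d4 (0.85) and 0.70 for Eif4ebp1 (1.21). In the averaged SkM fit the same covariate left 6 genes called (main 6), where calls over all genes went from 4556 to 3227 of 13610. With the replicate block, 1 gene was called for BAT CREX against EX and 3 for SkM CREX against EX. BAT CR against control lost Deptor, where 1309 of 13323 genes were called. SkM CR against control lost Irs1 and Sesn1 and gained Tbc1d4, where 2238 of 13173 genes were called. Deviations of same-numbered mice had mean correlations per comparison of -0.302 to 0.146. Comparisons of 2 groups held 3 or 4 such pairs, too few to decide whether the number is a pairing. The sources used here do not say whether BAT and SkM libraries with the same number came from 1 mouse. The tissue comparisons took all libraries as independent. With the replicate block the tissue difference called the same 5 genes, and 2623 of 14865 genes.

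In fits that omitted 1 mouse each, the counts ran from 3 to 4 (averaged BAT), 1 to 4 (BAT CR, lowest without control replicate 2), 0 to 2 (BAT CREX against EX, lowest without EX replicate 1, 2 or 3), 6 to 7 (averaged SkM), 3 to 5 (SkM CR), 3 to 7 (SkM CREX against EX, lowest without CREX replicate 2), 5 to 6 (tissue difference), 5 to 7 (control levels) and 0 to 0 for all training and interaction contrasts. Groups held 3 or 4 mice.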
